A study of Mus musculus with 12 samples.

Results

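The genes described here are the receptors by which macrophages sense microbial molecules: 9 mouse Toll-like receptor genes (Tlr1, Tlr2, Tlr3, Tlr4, Tlr6, Tlr7, Tlr8, Tlr9 and Tlr13) and Cd14, the co-receptor that hands lipopolysaccharide and other ligands to them. They were taken by gene symbol from a table of 53379 genes, and all 10 passed the filter on low counts that left 12386 genes for testing. RNA was sequenced from bone marrow-derived macrophages (BMDMs) of 4 C57Bl/6J mice, whose marrow cells had been grown for a week with L929 cell conditioned medium. From each mouse there is 1 untreated library, 1 after stimulation with 1 µM fenoterol for 1 h and 1 after 4 h of it, so that each of the 3 groups holds 4 libraries. Fenoterol is an agonist of the beta2-adrenergic receptor (B2AR), the main receptor through which norepinephrine, the transmitter of sympathetic nerves, acts on macrophages. The study describes its BMDM donors as adult males and gives their age only as a range over the whole study. The labels name no genetic modification, fenoterol was added without changing the medium, and no vehicle control or untreated culture of its own for each time is labelled. Both treated groups were therefore set against the same 4 untreated libraries.

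Toll-like receptors are membrane proteins with a ligand-binding part of leucine-rich repeats and a cytosolic TIR domain, which recruits adaptor proteins when the receptor dimerizes. Tlr2, with Tlr1 or Tlr6 as its partner, detects bacterial lipopeptides at the cell surface, and Tlr4 detects lipopolysaccharide there with the help of Cd14. Tlr3, Tlr7, Tlr8, Tlr9 and Tlr13 sit in endosomes and detect nucleic acids. In macrophages, agents that raise cyclic AMP, as B2AR agonists do, are known to alter the cytokine response to such ligands.

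The 12 libraries held 14580533 to 24153284 counted reads each, with the untreated libraries between 14580533 and 22580692, the 1 h libraries between 18288911 and 20549801 and the 4 h libraries between 18446470 and 24153284. The labelled cell type was checked with 7 macrophage markers (Adgre1, Csf1r, Itgam, Cd68, Lyz2, Mertk and Fcgr1), whose normalized counts summed to 734479 to 772885 in untreated, 660350 to 781038 in 1 h and 625780 to 716073 in 4 h libraries. A single marker weighs heavily in these sums. The highest raw count of 1 marker in a library was 594475 in untreated, 491382 in 1 h and 530382 in 4 h libraries. At 1 h, 1 of these 7 was lower and 0 were higher by edgeR's quasi-likelihood test, against 10.1% and 10% of all genes tested. At 4 h, 4 were lower and 2 higher, against 20.4% and 19.7% of all genes, from Mertk (-1.51 on the log2 scale) to Fcgr1 (0.72). With the mouse as a block 5 were lower and 2 higher, where 2952 of all 12386 genes were lower and 2918 higher. Summed normalized counts of B cell markers reached at most 6.26, of T and NK cell markers 5.12 and of mast cell and basophil markers 3.07 in any library. Markers of neutrophils and their precursors summed to 325 to 619 in untreated, 355 to 590 in 1 h and 337 to 566 in 4 h libraries, and those of dendritic cells to 7.40 to 33.5 over all libraries. The 3 markers of stroma and endothelium summed to 223 to 643, and 1 of them, Cdh5, was higher at 4 h by 2.19 on the log2 scale. The part of these shifts in the results below was not tested. In bulk RNA, fewer cells that express a receptor and less receptor RNA per cell cannot be told apart.

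After 1 h of fenoterol, Cd14 and Tlr2 rose, Tlr1, Tlr4, Tlr6 and Tlr7 fell, and Tlr3, Tlr8, Tlr9 and Tlr13 did not pass the test (adjusted p under 0.05, edgeR's quasi-likelihood test with Benjamini-Hochberg adjustment over all 12386 genes). Of the 10 genes, 2 were thus called higher, against 10% of all genes tested, and 4 lower, against 10.1%. With scaling by library size alone, 949 of all genes were called higher and 1969 lower at 1 h in place of 1242 and 1251, and the 10 genes were then split into 2 higher and 5 lower. With the mouse as a block, which pairs libraries of the same mouse, 1646 of all genes were higher and 1702 lower at 1 h, and Tlr9 joined the lower genes, which were then 5 of the 10. After 4 h, Cd14 and Tlr3 were higher than in untreated cells, Tlr1, Tlr2, Tlr7, Tlr9 and Tlr13 were lower, and Tlr4, Tlr6 and Tlr8 did not pass. This made 2 genes higher, against 19.7% of all genes, and 5 lower, against 20.4%, and with the block 2918 of all genes were higher and 2952 lower, and with Tlr6 6 of the 10 genes were lower. The median log2 fold change of the 10 genes was -0.34 at 1 h and -0.45 at 4 h, against -0.0049 and 0.0042 for all genes tested.

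**Figure D1:**
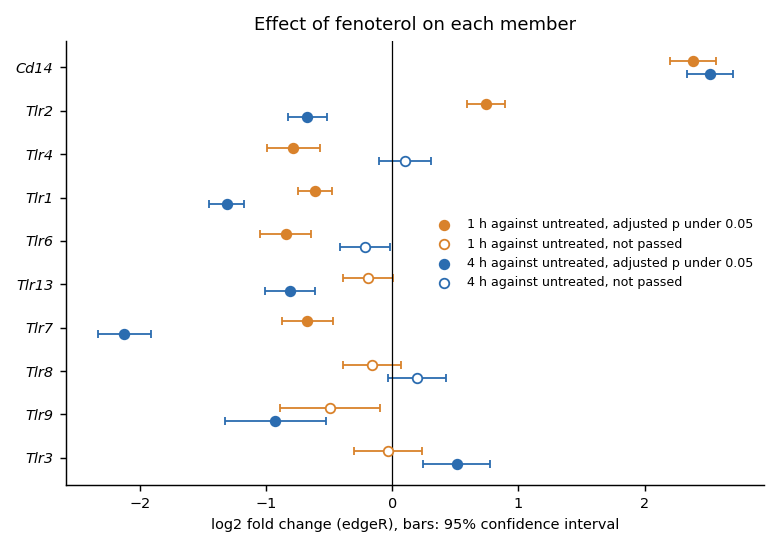
Log2 fold change of each of the 10 genes at 1 h (orange) and 4 h (blue) of fenoterol against the same 4 untreated libraries, from edgeR, with 95% confidence intervals; filled points have an adjusted p under 0.05. Cd14 lies near 2.39 and 2.52 at both times, Tlr2 changes side from 0.74 to -0.67, and Tlr7 has the lowest value, -2.12 at 4 h.

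The libraries of 4 h were also set directly against those of 1 h, which tests whether the effects at both times differ. Tlr3, Tlr4, Tlr6 and Tlr8 were higher at 4 h than at 1 h, against 18.7% of all genes called higher in this contrast. Tlr1, Tlr2, Tlr7 and Tlr13 were lower, against 19.8% of all genes, and Tlr9 and Cd14 did not pass. With library size alone as the scale, the median log2 fold change of all genes in this contrast was 0.10 in place of 0.0074, 3503 genes were called higher and 1830 lower in place of 2320 and 2453, and 5 of the 10 genes were higher and 4 lower. With the mouse as a block 2853 of all genes were higher and 2922 lower, and with Tlr9 5 of the 10 genes were lower.

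Cd14 (ENSMUSG00000051439, chr18:36725067-36726798 on the minus strand of GRCm38), the lipopolysaccharide co-receptor, changed most in size among the 10 genes at both times. Its normalized counts, that is counts scaled to a common library size after TMM normalization, were 12528, 12373, 14530 and 11833 in the untreated libraries of mice 1 to 4. At 1 h they were 71076, 71211, 64332 and 61227. At 4 h they were 76744, 72834, 78991 and 64538. Every treated library lay far above every untreated one, and the 1 h and 4 h libraries overlapped. The log2 fold change was 2.39 (SE 0.0843, adjusted p = 3.45e-11, edgeR's quasi-likelihood test) at 1 h, a 5.22-fold rise, and 2.52 (SE 0.0847, adjusted p = 3.84e-11) at 4 h, a 5.72-fold rise. By p-value, Cd14 ranked 37 of the 12386 genes at 1 h and 16 at 4 h. Between 1 h and 4 h the difference was 0.13 on the log2 scale, with a 95% confidence interval from -0.04 to 0.30 (adjusted p = 0.225), and with library size alone as the scale it was 0.22 (adjusted p = 0.0284). Cd14 took 0.066% of all counted reads in untreated, 0.329% in 1 h and 0.384% in 4 h libraries on average. On the length-scaled scale (FPKM, reads per kilobase of merged exons, scaled to library size), its level ranked 74 among the genes tested in untreated cells, 14 at 1 h and 11 at 4 h.

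**Figure D2:**
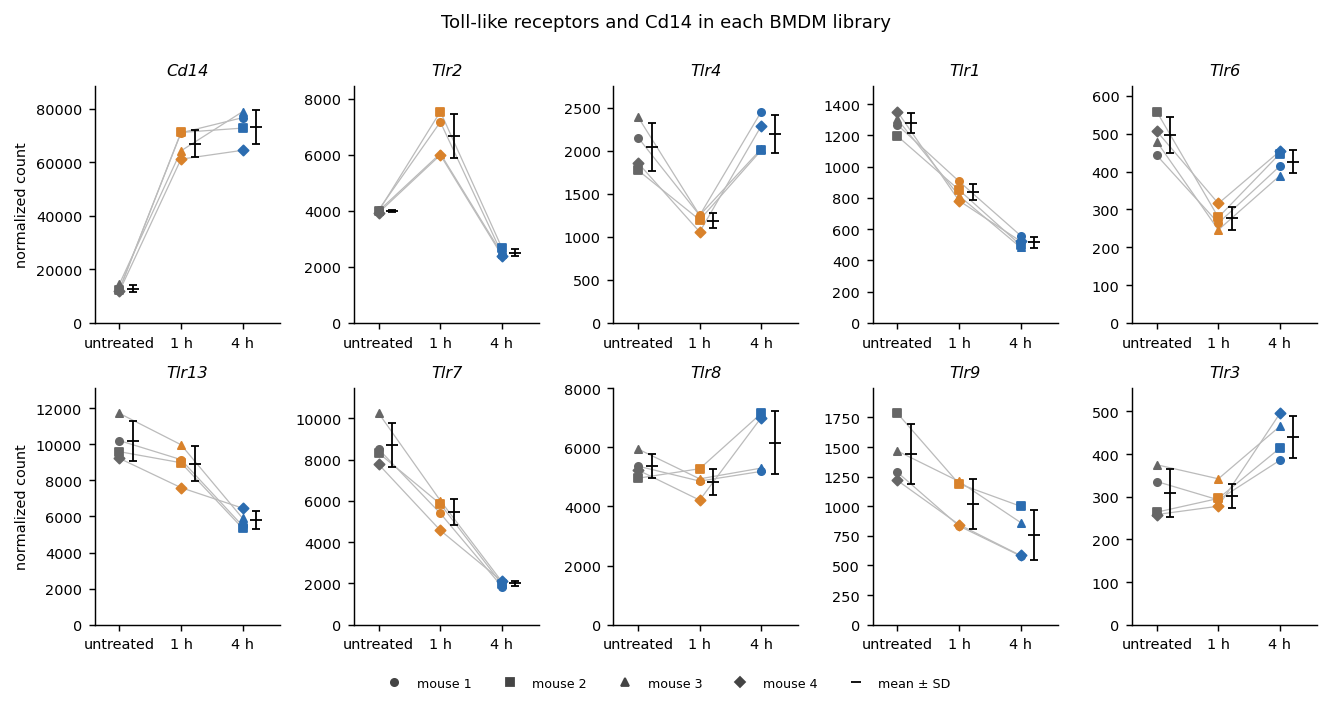
Normalized counts of the 10 genes in each of the 12 libraries, with 1 panel per gene, the group on the horizontal axis, 1 symbol shape per mouse joined by grey lines, and black marks for the mean and SD of 4 libraries. Cd14 is high in all 8 treated libraries, Tlr2 peaks at 1 h, Tlr4 and Tlr6 dip at 1 h, and Tlr1, Tlr7, Tlr9 and Tlr13 have their lowest mean at 4 h.

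Tlr4 (ENSMUSG00000039005, chr4:66827584-66930284, plus strand), the lipopolysaccharide receptor that Cd14 serves, fell at 1 h and overlapped the untreated range again at 4 h. Its normalized counts were 2153, 1773, 2391 and 1858 in untreated libraries, 1249, 1197, 1250 and 1058 at 1 h, and 2455, 2007, 2023 and 2289 at 4 h. The 1 h libraries lay below all others, while untreated and 4 h libraries overlapped. The log2 fold change at 1 h was -0.78 (SE 0.0973, adjusted p = 3.14e-05), with a decrease in 4 of 4 mice. At 4 h it was 0.10 with a 95% confidence interval from -0.10 to 0.31 (adjusted p = 0.442), and Tlr4 was higher at 4 h than at 1 h by 0.88 (adjusted p = 5.98e-06). The length-scaled level of Cd14 was 20.2 ± 1.60 times that of Tlr4 in untreated cells (SD, n = 4), 181 ± 11.2 times at 1 h and 108 ± 15.7 times at 4 h. These ratios did not overlap between any of the 3 groups. Their size depends on the length used, since Tlr4 has 5556 bases of merged exons and a longest transcript of 4077. With the longest transcript as length, Tlr4 had mean levels of 25.6, 14.9 and 27.5 FPKM in untreated, 1 h and 4 h libraries. Cd14 then had 399, 2082 and 2279, so that the multiples were smaller.

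Tlr2 (ENSMUSG00000027995, chr3:83836272-83841767, minus strand), the shared partner of the lipopeptide receptors, was the only one of the 9 receptors that rose at 1 h, and it moved to the other side of the untreated level by 4 h. Normalized counts were 4043, 4002, 4003 and 3941 in untreated libraries, 7177, 7547, 6050 and 5999 at 1 h, and 2473, 2678, 2462 and 2406 at 4 h. None of the 3 groups overlapped. It changed by 0.74 on the log2 scale (SE 0.0711, adjusted p = 2.07e-06) at 1 h, 1.67-fold higher, and -0.67 (SE 0.0715, adjusted p = 2.85e-06) at 4 h, 1.60-fold lower. The direct contrast of 4 h with 1 h gave -1.42 (adjusted p = 2.67e-09), a fall in 4 of 4 mice.

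Tlr1 (ENSMUSG00000044827, chr5:64924679-64933563, minus strand) and Tlr6 (ENSMUSG00000051498, chr5:64952031-64960097, minus strand), the alternative partners of Tlr2, are neighbours with 18467 bases between them, and 66.6% of the aligned residues of their proteins are identical, or 82.9% over the last 150 residues, the end that faces the cytosol. Their exons share 6 identical stretches of at least 50 bases, the length of a read, with 748 bases in all, so reads of these stretches have no unique gene, and how such reads were counted is not given in the sources used here. Of the distinct 50-base stretches in their annotated transcripts, 15.4% of those of Tlr1 and 12.3% of those of Tlr6 also occur in transcripts of another gene. The longest shared stretch is printed because it shows how alike both genes are. It is coding sequence in both, at chr5:64925537-64925765 in Tlr1 and chr5:64953828-64954056 in Tlr6 (GRCm38, minus strand, GENCODE transcripts), and reads from 5′ to 3′:
Tlr1 and Tlr6: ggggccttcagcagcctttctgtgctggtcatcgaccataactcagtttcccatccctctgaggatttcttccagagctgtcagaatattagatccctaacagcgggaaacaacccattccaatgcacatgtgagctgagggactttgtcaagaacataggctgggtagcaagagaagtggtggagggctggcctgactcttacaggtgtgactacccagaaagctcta
For both genes the values are uncertain to the extent of these stretches.

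Tlr1 fell at both times. Its normalized counts were 1266, 1194, 1302 and 1351 in untreated libraries, 906, 851, 813 and 782 at 1 h, and 558, 497, 483 and 522 at 4 h, and the 3 groups were fully separate. The change on the log2 scale was -0.61 (SE 0.0625, adjusted p = 4.18e-06) at 1 h and -1.31 (SE 0.064, adjusted p = 8.69e-10) at 4 h, when it was 2.48-fold lower. Tlr1 was also lower at 4 h than at 1 h, with -0.70 on the log2 scale (adjusted p = 9.23e-07).

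Tlr6 fell at 1 h and rose again thereafter. Its normalized counts were 443, 558, 479 and 507 in untreated libraries, 264, 279, 246 and 316 at 1 h, and 415, 447, 389 and 454 at 4 h. All 1 h libraries lay below the others, and untreated and 4 h libraries overlapped slightly. The log2 fold change was -0.84 (SE 0.0949, adjusted p = 1.12e-05) at 1 h and -0.22 (SE 0.0924, adjusted p = 0.0774) at 4 h. With the mouse as a block the 4 h value was -0.22 with an adjusted p of 0.0188, so the call depended on the pairing, and without the untreated library of mouse 1 it was -0.27 (adjusted p = 0.044). From 1 h to 4 h Tlr6 rose by 0.63 (adjusted p = 0.000115).

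The partners of Tlr2 thus had different levels relative to it at each time. Within libraries, the length-scaled level of Tlr1 was 0.288 ± 0.017 of that of Tlr2 in untreated cells (SD, n = 4), 0.113 ± 0.0085 at 1 h and 0.186 ± 0.0166 at 4 h. For Tlr6 these ratios to Tlr2 were 0.101 ± 0.0103, 0.0338 ± 0.006 and 0.138 ± 0.0105. The untreated, 1 h and 4 h values did not overlap for either partner. Tlr1 was 2.89 ± 0.35 times as high as Tlr6 in untreated cells, 3.42 ± 0.47 times at 1 h and 1.35 ± 0.12 times at 4 h. For this last ratio, untreated and 1 h libraries overlapped and all 4 h libraries were lower.

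**Figure D3:**
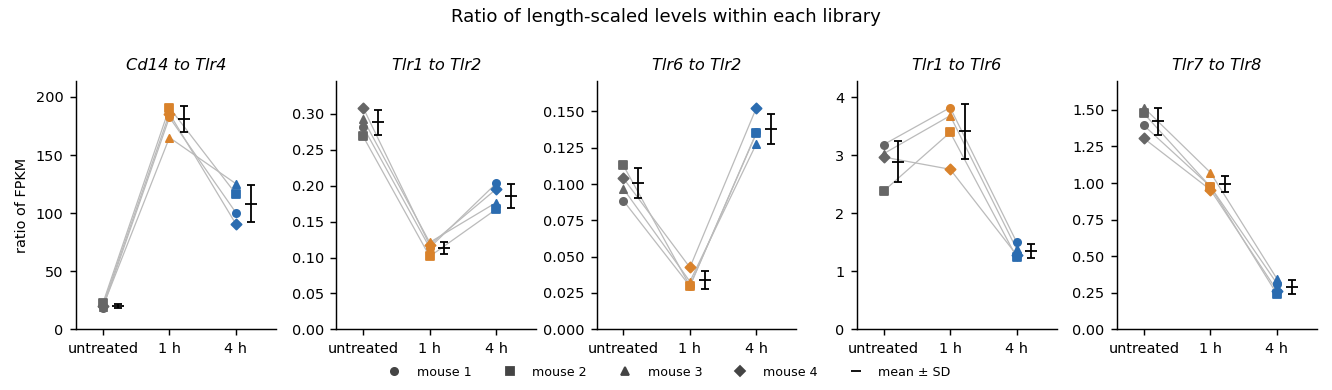
Ratio of length-scaled levels (FPKM over merged exons) of 5 gene pairs within each of the 12 libraries, by group, with 1 symbol shape per mouse and the mean and SD of 4 libraries in black. Cd14 to Tlr4 peaks at 1 h with a mean of 181, both partners of Tlr2 have their lowest ratio to it at 1 h, and Tlr7 to Tlr8 falls from 1.42 to 0.291.

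Among the endosomal receptors, Tlr7 (ENSMUSG00000044583, chrX:167304929-167330558, minus strand), a sensor of single-stranded RNA, showed the steepest fall. Normalized counts were 8504, 8319, 10245 and 7767 in untreated libraries, 5395, 5848, 6015 and 4570 at 1 h, and 1845, 1954, 2080 and 2109 at 4 h. The 3 groups did not overlap. The log2 fold change was -0.67 (SE 0.0939, adjusted p = 9.71e-05) at 1 h and -2.12 (SE 0.0979, adjusted p = 5.2e-10) at 4 h, which is 4.36-fold lower, and the step from 1 h to 4 h was -1.45 (adjusted p = 3.35e-08).

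Tlr8 (ENSMUSG00000040522, chrX:167242696-167264329, minus strand) is the neighbour of Tlr7 on the X chromosome with 40599 bases between them and its closest relative among the 9 receptors, with 43.8% identical residues. Its normalized counts were 5358, 4951, 5937 and 5227 in untreated libraries, 4854, 5272, 4930 and 4210 at 1 h, and 5182, 7144, 5294 and 7003 at 4 h. The groups overlapped, and the 4 h libraries of mice 2 and 4 stood above the rest. Tlr8 had a log2 fold change of -0.16 with a 95% confidence interval from -0.39 to 0.07 at 1 h (adjusted p = 0.365) and 0.20 with an interval from -0.03 to 0.43 at 4 h (adjusted p = 0.164). Tlr8 passed for 4 h against 1 h with 0.35 (SE 0.107, adjusted p = 0.0172), higher in 4 of 4 mice by 0.09 to 0.73. That call was lost without the 1 h library of mouse 4 (0.29, adjusted p = 0.0556), the 4 h library of mouse 2 (0.28, adjusted p = 0.061) or the 4 h library of mouse 4 (0.29, adjusted p = 0.0583). The level of Tlr7 relative to Tlr8 was 1.42 ± 0.093 in untreated cells, 0.994 ± 0.0529 at 1 h and 0.291 ± 0.0472 at 4 h (SD, n = 4), without overlap between the groups.

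Tlr13 (ENSMUSG00000033777, chrX:106143204-106160493, plus strand), a sensor of bacterial ribosomal RNA that humans lack, fell late. Its normalized counts were 10208, 9594, 11718 and 9222 in untreated libraries, 9154, 8979, 9979 and 7598 at 1 h, and 5476, 5343, 5899 and 6460 at 4 h. The 4 h libraries lay below all others, while untreated and 1 h libraries overlapped. For Tlr13 it was -0.19 on the log2 scale with a 95% confidence interval from -0.39 to 0.01 at 1 h (adjusted p = 0.181), and -0.81 (SE 0.0925, adjusted p = 5.77e-06) at 4 h. The direct contrast of 4 h with 1 h gave -0.62 (adjusted p = 9.69e-05), with the smallest decrease, -0.23, in mouse 4 and -0.74 to -0.76 in the other mice.

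Tlr9 (ENSMUSG00000045322, chr9:106222598-106226883, plus strand), the sensor of unmethylated CpG DNA, was lower at 4 h, and the same mice were high in every group. Normalized counts were 1287, 1785, 1467 and 1218 in untreated libraries, 834, 1189, 1210 and 845 at 1 h, and 580, 1000, 863 and 584 at 4 h. Mice 2 and 3 were above mice 1 and 4 at every time, the untreated libraries lay above both treated groups, and the treated groups overlapped. At 1 h Tlr9 had a log2 fold change of -0.50 (SE 0.184, adjusted p = 0.0777) and of -0.93 (SE 0.186, adjusted p = 0.00105) at 4 h. With the mouse as a block the 1 h value was -0.50 with an adjusted p of 1.93e-05. The change from 1 h to 4 h was -0.43 (adjusted p = 0.084) without the block and -0.44 (adjusted p = 5.27e-05) with it, and without the 4 h library of mouse 2 it was -0.59 (adjusted p = 0.023). The decrease was seen in 4 of 4 mice in each of the 3 contrasts.

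Tlr3 (ENSMUSG00000031639, chr8:45395665-45411080, minus strand), the sensor of double-stranded RNA, had the lowest mean FPKM over merged exons of the 9 receptors in each group. In normalized counts at 4 h, however, Tlr6 had a lower mean (426) than Tlr3 (440). Tlr3 was the only one of the 9 that was called higher at 4 h than in untreated cells. Its normalized counts were 336, 264, 375 and 258 in untreated libraries, 293, 296, 342 and 278 at 1 h, and 386, 414, 465 and 495 at 4 h. The 4 h libraries were above all others, and untreated and 1 h libraries overlapped. The log2 fold change was -0.03 with a 95% confidence interval from -0.30 to 0.24 at 1 h (adjusted p = 0.905), and 0.51 (SE 0.124, adjusted p = 0.00425) at 4 h. Between 1 h and 4 h it rose by 0.54 (adjusted p = 0.0031). Gm45542, on the opposite strand, overlaps 381 exon bases or 7.32% of Tlr3, and the strand setting of the counting is not given in the sources used here.

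Promoter sequences from RefSeq (GRCm38.p6, 250 bases before to 50 bases after the start) were available for 7 of the 10 genes, and Tlr4, Tlr7 and Cd14 had no entry. They were searched on both strands for the cAMP response element TGACGTCA, its shorter core TGACG, which the full element contains, the AP-1 motif TGANTCA and the PU.1 motif GAGGAAGT. Tlr1 and Tlr6 had 2 promoters each and the others 1. The full element was in no promoter of the 7 genes. It is in 1.79% of all 32851 promoters of the same length, and in a promoter of 2.03% of 27025 genes. The core was in a promoter of Tlr6 at position -73 and in that of Tlr13 at -136, and is in 20.8% of all promoters and 23.0% of genes. The AP-1 motif was in the promoter of Tlr9 at -58 (7.81% of all promoters, 8.97% of genes). The PU.1 motif was in a promoter of Tlr1 at -23 and in that of Tlr9 at position 10 (3.20% of all promoters, 3.69% of genes). The 4 promoters with a match are shown up to the first annotated exon base, with the match in capitals, as the only ones that held any of these motifs. The PU.1 match of Tlr9 at position 10 lies past the end of the printed sequence. The promoters of Tlr2, Tlr3 and Tlr8 held none. A match is a string of letters in this window and no evidence of binding. The windows are chr5:64933564-64933808 (minus strand) for Tlr1, chr5:64960098-64960298 (minus strand) for Tlr6, chr9:106222348-106222597 (plus strand) for Tlr9 and chrX:106143025-106143203 (plus strand) for Tlr13, each read from 5′ to 3′:
Tlr1: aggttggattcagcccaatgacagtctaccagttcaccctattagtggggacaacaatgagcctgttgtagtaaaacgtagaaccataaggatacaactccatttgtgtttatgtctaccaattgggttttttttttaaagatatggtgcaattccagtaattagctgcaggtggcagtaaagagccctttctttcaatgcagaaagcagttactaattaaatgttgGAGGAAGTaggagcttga
Tlr6: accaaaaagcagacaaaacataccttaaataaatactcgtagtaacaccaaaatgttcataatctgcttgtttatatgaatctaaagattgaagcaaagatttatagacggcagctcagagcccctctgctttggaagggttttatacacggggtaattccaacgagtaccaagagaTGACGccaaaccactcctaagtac
Tlr9: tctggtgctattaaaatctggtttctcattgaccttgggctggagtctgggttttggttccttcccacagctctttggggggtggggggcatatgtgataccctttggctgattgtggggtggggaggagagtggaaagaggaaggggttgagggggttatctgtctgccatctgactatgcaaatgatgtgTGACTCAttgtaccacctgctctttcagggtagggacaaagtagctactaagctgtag
Tlr13: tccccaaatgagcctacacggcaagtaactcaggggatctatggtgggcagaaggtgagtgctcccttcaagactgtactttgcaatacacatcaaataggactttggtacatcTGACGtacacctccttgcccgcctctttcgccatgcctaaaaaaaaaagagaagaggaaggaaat

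On the length-scaled scale, the order of the 10 genes in untreated cells began with Cd14 at 378 ± 34.8 FPKM (SD, n = 4), followed by Tlr13 at 121 ± 13.04 and Tlr7 at 109 ± 13.4, whose libraries overlapped. Tlr8 with 76.4 ± 5.91 and Tlr2 with 67.7 ± 0.72 came next, each apart from its neighbours. Tlr9, Tlr1 and Tlr4 had 21.1 ± 3.71, 19.5 ± 1.01 and 18.8 ± 2.602 and overlapped, and Tlr6 with 6.80 ± 0.67 and Tlr3 with 3.02 ± 0.56 were lowest. The highest and the lowest of these receptors were thus both endosomal.

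At 1 h, Tlr2 with 113 ± 13.3 FPKM had moved from the fifth place of the 10 to the second and overlapped Tlr13 with 106 ± 11.7. Tlr8 (68.5 ± 6.31) and Tlr7 (68.2 ± 8.08) overlapped each other, as did Tlr9 (14.96 ± 3.05) and Tlr1 (12.8 ± 0.81). Cd14 stood at 1973 ± 147, and Tlr4, Tlr6 and Tlr3 were the last with 10.9 ± 0.83, 3.78 ± 0.41 and 2.96 ± 0.27.

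At 4 h, Tlr8 with 87.6 ± 15.1 FPKM and Tlr13 with 68.7 ± 5.96 overlapped at the top of the receptors, below Cd14 with 2159 ± 187. Tlr2 (42.4 ± 2.02), Tlr7 (24.97 ± 1.52) and Tlr4 (20.1 ± 1.99) followed without overlap. With the longest transcript as length, Tlr4 (27.5 ± 2.72) and Tlr7 (26.2 ± 1.59) overlapped. Tlr9 (11.1 ± 3.07) overlapped Tlr1 (7.86 ± 0.50), and Tlr6 (5.84 ± 0.41) and Tlr3 (4.31 ± 0.49) were lowest.

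**Figure D4:**
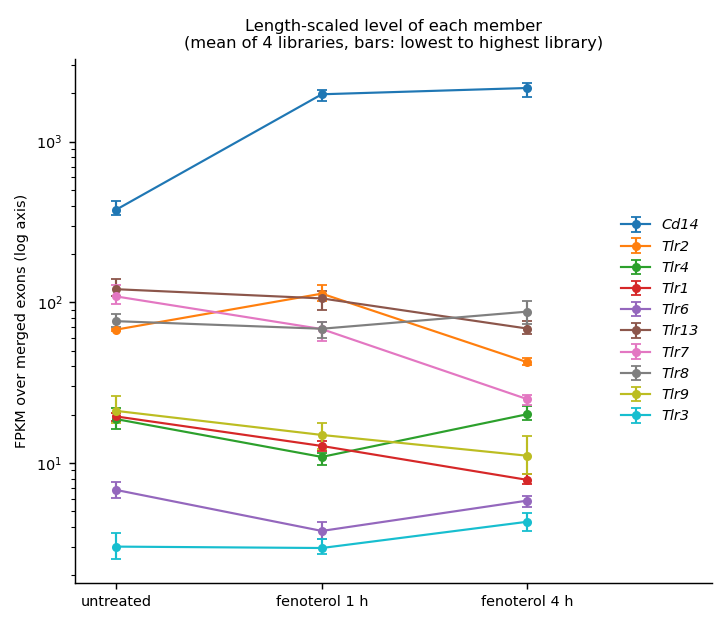
Length-scaled level (FPKM over merged exons, log axis) of each of the 10 genes in untreated, 1 h and 4 h cells, as the mean of 4 libraries with bars from the lowest to the highest library. The line of Cd14 lies above all receptors in every group, Tlr7 falls from 109 to 24.97 and crosses Tlr8 and Tlr2, and the lines of Tlr4 and Tlr1 cross between 1 h and 4 h.

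Summed over the 9 receptors, the length-scaled level was 443 ± 35.1 FPKM in untreated cells, 401 ± 35.4 at 1 h and 273 ± 18.9 at 4 h (SD, n = 4). The untreated and 1 h libraries overlapped, and the 4 h libraries were below both. The 4 surface receptors among the 9 made up 25.5 ± 1.43% of this sum in untreated cells, 35.1 ± 2.57% at 1 h and 28.04 ± 2.19% at 4 h. Untreated libraries (23.6 to 27.0%) and 4 h libraries (26.0 to 31.1%) overlapped. Tlr5, described below, is not among the 9 and is left out of the sum and of these shares. Tlr2 alone accounted for 15.3 ± 1.09%, 28.3 ± 2.38% and 15.6 ± 1.13%. Within the endosomal receptors, the share of Tlr7 in the sum of all 9 dropped from 24.5 ± 1.04% to 17.0 ± 0.83% and 9.16 ± 0.58%, while that of Tlr8 was 17.3 ± 0.63%, 17.1 ± 0.27% and 31.9 ± 3.44%. Tlr13 held 27.2 ± 0.79%, 26.4 ± 1.61% and 25.2 ± 2.07%.

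The genes with the most similar pattern were sought by Pearson's r over the 12 libraries, which share mice and groups, on log2 library-scaled counts, among the 10288 genes whose normalized count averaged 50 or more. For Cd14 they were Cyth1 (r = 0.996) and Cytip (r = 0.995), for Tlr2 Tnfaip3 (r = 0.994) and Plk2 (r = 0.986), and for Tlr4 Cflar (r = 0.953) and Mfap3 (r = 0.949). For Tlr1 they were Sat1 (r = 0.992) and Pcyt1a (r = 0.989), and for Tlr6 Necap1 (r = 0.968) and Txnip (r = 0.963). For Tlr7 they were Atf3 (r = 0.997) and Slc35f5 (r = 0.992), for Tlr8 Zfp292 (r = 0.933) and A630072M18Rik (r = 0.925), for Tlr9 Igfbp4 (r = 0.947) and Aagab (r = 0.942), for Tlr13 Gng2 (r = 0.978) and Actr3 (r = 0.973), and for Tlr3 Cep295 (r = 0.964) and Rhbdd1 (r = 0.954). The values are descriptions of these libraries and carry no test.

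Of the other mouse receptors of the family, Tlr11 and Tlr12 had at most 4 counts in a library and were not tested. Tlr5, the receptor of bacterial flagellin, rose from 69.6 ± 20.5 normalized counts in untreated cells (SD, n = 4) to 345 ± 90.4 at 1 h and 1478 ± 357 at 4 h. Its log2 fold change was 2.33 (SE 0.24, adjusted p = 4.34e-06) at 1 h and 4.43 (SE 0.23, adjusted p = 1.86e-09) at 4 h, without overlap between the groups.

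The counts of the pathway lists stand against 10% of all genes tested called higher and 10.1% lower at 1 h, 19.7% and 20.4% at 4 h, and 18.7% and 19.8% at 4 h against 1 h. With library size alone, 949 of all 12386 genes were called higher and 1969 lower at 1 h. At 4 h these were 2669 and 2332, and at 4 h against 1 h 3503 and 1830. Among 13 accessory proteins, which transfer ligands, fold and traffic the receptors or cleave them in endosomes, 2 were higher and none lower at 1 h, and 3 were higher (23.1%) and 4 lower (30.8%) at 4 h. With scaling by library size alone the 1 h split was 0 higher and 1 lower, and with the mouse as a block, which also raised the calls over all genes from 2437 to 2918 higher and from 2521 to 2952 lower at 4 h, 5 were higher and 5 lower at that time. The largest values belonged to Cd180, a receptor-like regulator of Tlr4, with -1.86 (adjusted p = 2.15e-08) on the log2 scale at 4 h, and to Ctsl, an endosomal protease, with 1.05 (adjusted p = 1.05e-08). Ly96, which encodes the MD-2 subunit that binds lipopolysaccharide beside Tlr4, had 0.08 (adjusted p = 0.798) and -0.09 (adjusted p = 0.685). Unc93b1, the chaperone that carries endosomal receptors out of the endoplasmic reticulum, had 0.0005 (adjusted p = 0.998) at 1 h and was lower at 4 h with -0.27 (adjusted p = 0.0449), a call that was lost with library size alone (-0.25, adjusted p = 0.065). Lgmn, another endosomal protease, was lower at 4 h with -0.29 (adjusted p = 0.000246), and Cnpy4, a chaperone of the receptors, was higher with 0.23 (adjusted p = 0.00762). From 1 h to 4 h, 3 of the 13 rose and 5 fell, or 3 and 3 with library size alone.

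Of 6 adaptors, 1 was higher and 3 were lower at 1 h, and 1 was higher (16.7%) and 2 were lower (33.3%) at 4 h. Ticam1 (TRIF), the adaptor of Tlr3 and of endosomal Tlr4, fell at both times with -0.83 (adjusted p = 1.57e-06) and -0.65 (adjusted p = 8.45e-06). Myd88, which serves every receptor here except Tlr3, was lower at 1 h, with -0.27 (adjusted p = 0.00219) and had 0.02 at 4 h (adjusted p = 0.777). Tirap, which brings Myd88 to the surface receptors, was at -0.23 (adjusted p = 0.0459) and 0.56 (adjusted p = 2.37e-05), and with DESeq2 its 1 h call was lost (-0.22, adjusted p = 0.054). Ticam2, which joins Ticam1 to Tlr4, rose at 1 h by 0.58 (adjusted p = 0.0015). Pik3ap1, an adaptor to PI3 kinase, fell at 4 h, with -0.94 (adjusted p = 2.56e-07). In the contrast of 4 h with 1 h, 2 of the 6 were higher and 2 lower. There Ticam1 also passed with the mouse as a block (0.18, adjusted p = 0.0284) and with library size alone (0.27, adjusted p = 0.00862). This made 3 higher in each case. Over all genes, 2853 were higher with the block and 3503 with library size alone.

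Of 18 tested kinases and ubiquitin ligases of the pathway, 2 were higher and 5 lower at 1 h, 6 higher (33.3%) and 5 lower (27.8%) at 4 h, and 10 higher and 1 lower at 4 h against 1 h. With library size alone the 1 h split was 1 higher and 6 lower, against 949 and 1969 of all genes. In the contrast of 4 h with 1 h it was then 13 and 1, against 3503 and 1830. With the mouse as a block the splits were 2 higher and 6 lower at 1 h and 7 and 7 at 4 h. Over all genes the block called 1646 higher and 1702 lower at 1 h, and 2918 and 2952 at 4 h. Map3k8 (TPL2), the kinase that links Toll-like receptors to ERK, had the largest values of the list, -1.64 (adjusted p = 8.95e-10) at 1 h and -0.91 (adjusted p = 2.13e-07) at 4 h. Peli1, a ubiquitin ligase, had -0.77 (adjusted p = 7.98e-06) at 1 h, Irak2 rose by 0.54 (adjusted p = 2.14e-05), and Chuk (IKK alpha) rose at 4 h by 0.51 (adjusted p = 9.28e-06). The 19th gene of this list, Ube2v1, had at most 8 counts and was not tested.

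Of 7 inhibitors of the pathway, 2 were higher (28.6%) and 1 lower (14.3%) in each of the 3 contrasts, with library size alone or with the mouse as a block 2 were higher and 2 lower at 1 h, and with the block 2 were higher and 3 lower at 4 h against 1 h. Over all genes, the block called 1702 lower in place of 1251 at 1 h, and 2922 in place of 2453 at 4 h against 1 h. Tnfaip3 (A20), a deubiquitinase that ends NF-κB signalling, went the way of Tlr2, with 0.99 (adjusted p = 1.31e-06) at 1 h, -0.83 (adjusted p = 5.59e-06) at 4 h and -1.83 (adjusted p = 2.91e-09) between them. Cyld, another deubiquitinase, was higher at both times with 0.36 (adjusted p = 0.000515) and 0.21 (adjusted p = 0.0124). Otud7b, also a deubiquitinase, had -0.25 (adjusted p = 0.0298) and 0.45 (adjusted p = 0.000193). Irak3, Tollip, Sigirr and Il1rl1 passed at neither time against untreated cells, except that Irak3 at 1 h had -0.20 with an adjusted p of 0.00873 under the block and -0.27 with one of 0.0141 with library size alone.

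Of 17 genes that are targets of Toll-like receptor signalling in macrophages, 13 were tested, and Il6, Il12b, Ifnb1 and Nos2 were at 0 to 5 counts in every library. At 1 h, 3 of the 13 were higher and 4 lower, at 4 h 3 were higher (23.1%) and 7 lower (53.8%), and between the times 2 rose and 7 fell. Ptgs2, the inducible cyclooxygenase, rose by 7.29 (adjusted p = 1.73e-10) at 1 h and was 3.04 (adjusted p = 1.5e-05) above untreated cells at 4 h. Il1b rose by 4.63 (adjusted p = 4.39e-09) and 3.28 (adjusted p = 1.2e-07). The chemokine gene Ccl3 fell, with -3.65 (adjusted p = 1.51e-09) at 1 h and -2.84 (adjusted p = 7.57e-09) at 4 h. Ccl4, another chemokine gene, had -2.61 (adjusted p = 5.78e-08) and -1.95 (adjusted p = 4.34e-07). Cxcl10 (-2.19, adjusted p = 0.000352), Il10 (-1.13, adjusted p = 0.000916) and Tnf (-1.02, adjusted p = 6e-05) were lower at 4 h and did not pass at 1 h, where Tnf had -0.38 (adjusted p = 0.0862). Tnf passed at 1 h with the mouse as a block (-0.38, adjusted p = 0.0174) and with library size alone (-0.44, adjusted p = 0.0409). The target genes therefore did not move one way.

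Of 14 other pattern recognition receptors, 5 were higher and 3 lower at 1 h, 2 higher (14.3%) and 5 lower (35.7%) at 4 h, and 2 higher and 6 lower at 4 h against 1 h. Nod2, a cytosolic sensor of bacterial muramyl dipeptide, rose by 2.49 (adjusted p = 4.63e-10) at 1 h and 1.60 (adjusted p = 3.29e-08) at 4 h. Nod1, its relative, fell, with -0.59 (adjusted p = 0.00153) and -1.40 (adjusted p = 2.23e-07). Clec4e (Mincle), a lectin that binds mycobacterial glycolipid, rose by 1.15 (adjusted p = 1.76e-05) and 2.20 (adjusted p = 1.05e-08). Clec7a (Dectin-1), the beta-glucan receptor, was higher at 1 h by 0.60 (adjusted p = 0.000469) and lower at 4 h, with -0.54 (adjusted p = 0.000499), with -1.14 (adjusted p = 5.8e-07) between the times.

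The median log2 fold change at 1 h was 0.04 for the accessory proteins, -0.12 for the adaptors, -0.06 for the kinases and ubiquitin ligases, 0.09 for the inhibitors, -0.06 for the target genes and 0.06 for the other pattern recognition receptors, against -0.0049 for all genes tested. At 4 h these medians were -0.09, 0.04, 0.10, 0.10, -0.54 and 0.01 in the same order, against 0.0042. Only the target genes at 4 h had a median as far from that of all genes as the 10 receptor genes had at 4 h.

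**Figure D5:**
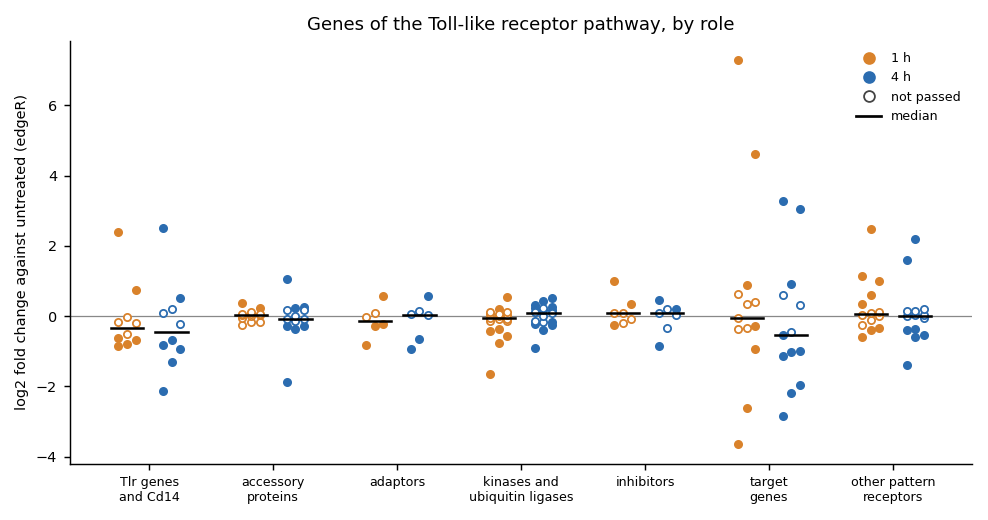
Log2 fold change against untreated cells at 1 h (orange) and 4 h (blue) for the 10 genes and for 6 lists of pathway genes by role; each point is a gene, filled where the adjusted p is under 0.05, and black lines are medians. The target genes spread from -3.65 to 7.29 at 1 h, while the accessory proteins stay between -0.25 and 0.37 at that time.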

How the data were processed

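RNA of 12 BMDM libraries (4 mice, 3 groups of 4) was measured by single-end sequencing of stranded mRNA libraries, all on 1 lane. The authors mapped reads to GRCm38 with TopHat 2.0.11, counted genes with HTSeq 0.8.0 and deposited raw counts per gene. The counting strand option and annotation release are not given in the sources used here. Genes were matched to GENCODE M21, which holds 53274 of the 53379 identifiers. Counts were filtered (filterByExpr), TMM-normalized and tested with edgeR 4.0.16 (quasi-likelihood, R 4.3.3) in 1 fit of the 12 libraries, with Benjamini-Hochberg adjustment. The study used vsn and limma, and vsn was not used here. Alternatives were DESeq2 1.42.0, limma 3.58.1 (voom and trend), other normalizations, filters and thresholds, a mouse block, 2 groups only and each library left out. The count models were also run on simulated counts with known changes. FPKM used merged exon lengths. Protein identities come from translated GENCODE coding sequences (Biopython 1.88).

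Same-numbered libraries come from the same mouse by their labels, and their deviations from the group means correlated at 0.290 to 0.561 in 12 pairs, against -0.304 to 0.091 between mice. Subtracting the group means itself lowers the correlations between mice, so the range between mice is not an independent comparison. Replicates differed by more than sampling noise (chi-square per degree of freedom of at least 9.29). Named beside the 10 genes are pathway genes with an adjusted p under 0.05 and a log2 fold change of at least 1 in size, up to 4 more per list with the smallest adjusted p, and the 2 genes most like each of the 10. Ly96, Unc93b1 and the markers given with values fall outside this rule and were chosen after their values were seen. The members and lists were chosen with earlier results of these data known.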

Additional observations from a re-analysis of the deposited data

Results flagged for a closer look

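No library stood apart from the other 3 of its group in any of the 30 gene and group combinations tested with Dixon's criterion, where chance alone would give about 1.5. For 8 of the 10 genes, 4 higher and 4 lower, the effect at 4 h differed from that at 1 h in the direct contrast of edgeR's quasi-likelihood test, which called 18.7% of all genes tested higher and 19.8% lower. Both effects share the untreated libraries. The 4 h effect was lower, with a log2 fold change of -1.45 for Tlr7, -1.42 for Tlr2, -0.70 for Tlr1 and -0.62 for Tlr13. It was higher by 0.88 for Tlr4, 0.63 for Tlr6, 0.54 for Tlr3 and 0.35 for Tlr8. For Tlr2 this difference spans a change of direction, from above to below the untreated level, in 4 of 4 mice. For Tlr8 neither time alone passed against untreated cells.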

How the results depend on the processing

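The number of the 10 genes called higher or lower stayed within 1.5 times under every alternative. Of 660 values of single genes under alternatives, 643 kept direction and call, and no called value turned. The 3 reversals were Tlr3 at 1 h, never called, which ranged from -0.106 to 0.0797 with 1 library left out. Tlr8 at 4 h against 1 h also missed an adjusted p under 0.01 (0.0172). The mouse block changed the calls of Tlr9 at 1 h, Tlr9 at 4 h against 1 h and Tlr6 at 4 h and no other call of the 10 genes. Tlr9 also passed with library size alone (-0.56), no filter (-0.49) or only the groups compared (-0.49) at 1 h, and with no filter at 4 h against 1 h (-0.43). Among the pathway lists, library size alone gave 0 higher and 1 lower accessory proteins and 1 higher kinase at 1 h, 2 lower inhibitors at 1 h and 3 lower accessory proteins at 4 h against 1 h. Over all genes it called 949 higher and 1969 lower in place of 1242 and 1251 at 1 h. At 4 h against 1 h it called 3503 higher and 1830 lower in place of 2320 and 2453. The block gave 2 lower inhibitors at 1 h, 3 at 4 h against 1 h and 5 higher accessory proteins at 4 h, and it also raised the calls over all genes, from 1251 to 1702 lower, 2453 to 2922 lower and 2437 to 2918 higher in these contrasts. With the longest transcript as length, the place in the order of levels became 6 for Tlr4 and 8 for Tlr9 in untreated cells, 7 for Tlr4 and 8 for Tlr1 at 1 h, and 5 for Tlr4 and 6 for Tlr7 at 4 h. The mean of Tlr4 was then above that of Tlr1 in all 3 groups, so their lines would not cross. Tlr4 and Tlr7 then overlapped at 4 h, and Tlr6 and Tlr3 overlapped at 1 h and 4 h. With 4 mice and a biological coefficient of variation of 0.112, small effects such as those of Tlr3, Tlr8 and Tlr13 at 1 h are bounded by their intervals, and p-values cover the spread between these mice.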
